A study of Callithrix jacchus with 39 samples.

Results

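Stomach chromatin is described here by the 4 ChIP-seq libraries of that tissue in a survey of 8 tissues of a New World monkey, the common marmoset (Callithrix jacchus). Members were chosen by the tissue named in the library title: H3K27ac replicates 1 and 2 and H3K4me3 replicates 1 and 2, which are 4 of the 31 ChIP libraries. They were set against the libraries of the same mark from colon, heart, kidney, liver, pancreas, skeletal muscle and spleen, which number 14 for H3K27ac and 13 for H3K4me3 because heart has H3K4me3 replicate 2 alone. The H3K27ac regions found in both stomach libraries, 21491 of the 182134 such regions of the 8 tissues, are the members described below, together with 18376 of 131339 H3K4me3 regions. The latter total counts all 18231 heart peaks, since heart has no H3K4me3 replicate to filter them. The 31 libraries were immunoprecipitated with antibody ab4729 (H3K27ac) or ab8580 (H3K4me3). No treatment, genotype, age, sex or part of the stomach is given in the labels. They do not say whether the replicate numbers stand for different animals, so each ± below measures the spread between libraries or tissues. A ± over the 2 stomach libraries was taken after each was cut to peaks overlapped by the other, which makes the lists alike.

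H3K27ac is an acetylation of the tail of histone H3 that lies at active promoters and active enhancers, and H3K4me3 is a methylation of the same tail that lies mainly at promoters. Enhancers are stretches of DNA that raise transcription of genes that may lie far away, and their use differs among cell types far more than that of promoters. The stomach wall combines a mucosa of endodermal origin, with surface mucous cells, acid-secreting parietal cells, pepsinogen-secreting chief cells and hormone-secreting endocrine cells, and layers of smooth muscle. The libraries average over all of these cells, so fewer cells of a type and less mark per cell cannot be told apart. No annotation of the genome build calJac3, in which the peaks are given, was used here, so regions are named by position and the tissue label was not checked against marker genes.

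The stomach lists held 30803 and 31573 H3K27ac peaks, covering 24.0 Mb and 24.9 Mb, and 21217 and 22504 H3K4me3 peaks, covering 20.4 Mb and 22.8 Mb. The median peak was 585 bp and 592 bp long for H3K27ac, and 849 bp and 883.5 bp for H3K4me3. The read depth of the libraries is not known here, so a region absent from a list is one where no peak was called, and no more. The Jaccard index divides the length that 2 lists share by the length that either covers. It was 0.580 between the H3K27ac replicates and 0.735 between the H3K4me3 replicates. All 4 stomach libraries were nearest to the other stomach library of their mark. Among other tissues the nearest list was colon replicate 2 for H3K27ac (0.449 and 0.447) and pancreas replicate 2 for H3K4me3 (0.670 and 0.700). A stomach library was in turn the nearest list of another tissue for 4 of the 14 H3K27ac libraries and for 7 of the 13 H3K4me3 libraries. For 3 H3K4me3 libraries, replicate 2 of colon, pancreas and skeletal muscle, a stomach library was the nearest list of all, their own replicate included.

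Most stomach H3K27ac lay with H3K4me3. Of the 21491 regions 14054 (65.4%) overlapped H3K4me3 of a stomach library by at least 1 bp and are called promoter-like, and 7437 (34.6%) are called enhancer-like. The names stand for this rule alone. H3K4me3 lay in both stomach libraries at 13172 promoter-like regions and in 1 of them at 882. Enhancer-like regions were of 2 kinds: 1448 carried H3K4me3 in some other tissue, and 5989 carried it in none of the 15 libraries of the mark.

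The classes differed in how often both replicates had the peak. In replicate 1 87.7% of promoter-like and 62.1% of enhancer-like peaks were overlapped by replicate 2, and in replicate 2 the shares were 92.0% and 54.98%. Both libraries therefore had the higher share in the promoter-like class. Per library, 36.1% and 35.8% of the peaks found in both replicates were enhancer-like. The mean of 35.9 ± 0.22% (SD, n = 2) ranked 7 of 8 tissues, against 41.3 ± 7.08% in the others (SD, n = 7). This difference was not past the spread between tissues (p = 0.375, adjusted p = 0.6, from an exact permutation of which tissue is set apart, two-sided). With 8 tissues that exact permutation test cannot go below p = 0.125, so values of stomach against the others are given as ranks. With lists of equal length (the 24000 longest H3K27ac and 16000 longest H3K4me3 peaks of each) the share was 35.01% and ranked 5 of 8, below the mean of the others by 0.96 points. From 1 stomach H3K27ac list alone, with no replicate to filter it, the share was above that mean and ranked 2 (replicate 2, 48.2%) or 4 (replicate 1, 44.3%).

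Few stomach regions were restricted, that is, without H3K27ac in any of the 14 libraries of the other tissues. They numbered 1004 of 21491, or 4.67%, against 14.4% of the regions of the 7 other tissues treated in the same way. The restricted regions were 915 enhancer-like (12.3% of that class) and 89 promoter-like (0.633%), where the 7 other tissues together had 31.4% and 2.61%. In the enhancer-like class the share was 12.4% in replicate 1 and 12.2% in replicate 2. This mean of 12.3 ± 0.15% (SD, n = 2) ranked 7 of 8, with heart alone lower at 7.17% and skeletal muscle highest at 47.4%. The mean of the others was 28.3 ± 14.5% (SD, n = 7; p = 0.5 and adjusted p = 0.625, exact permutation test). Both stomach lists had been cut to the peaks overlapped by the other replicate, so their small spread is that of filtered lists. From 1 unfiltered stomach list alone the enhancer-like share was 17.4% (replicate 1) or 20.9% (replicate 2). Promoter-like restricted regions made up 0.712% and 0.725% in the replicates and also ranked 7 of 8 (others 2.68 ± 2.19%, SD, n = 7; p = 0.5 and adjusted p = 0.625, exact permutation test).

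**Figure D1:**
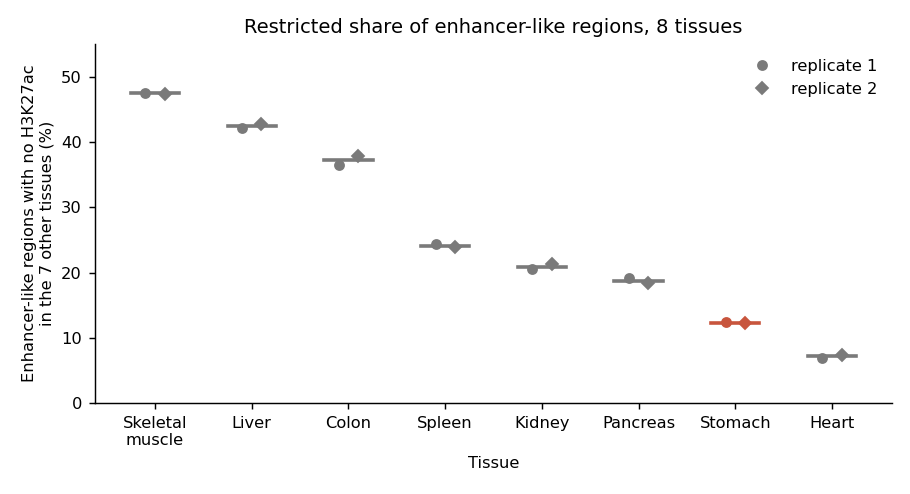
Percent of reproducible enhancer-like H3K27ac regions (vertical axis) with no H3K27ac in the 7 other tissues, for each tissue (horizontal axis); circles and diamonds are replicates 1 and 2, bars are their mean. Stomach, in red, has 12.4% and 12.2%, above heart alone. Each replicate was first cut to the peaks overlapped by the other, so the closeness of the replicates of a tissue is partly set by that filter.

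Whether H3K4me3 was present in another tissue split the enhancer-like regions further. Of the 1448 that carried it elsewhere 8 (0.552%) were restricted, and of the 5989 that carried it nowhere 907 (15.1%) were. Promoter-like regions with H3K4me3 in 1 stomach library were restricted in 30 cases (3.40%), and those with it in both in 59 (0.448%). Of the 89 restricted promoter-like regions, 28 carried H3K4me3 in another tissue and 61 did not. The share thus ran from 0.448% to 15.1% over these 4 subclasses and was highest where no tissue had H3K4me3. When another tissue was counted only where all of its libraries had the peak, the share was higher: by this rule 1811 enhancer-like regions (24.4%) were restricted, and the share per library, 24.9%, still ranked 7 of 8.

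The number of tissues sharing a region separated the classes. Among promoter-like regions 10313 (73.4%) carried H3K27ac in all 8 tissues, and 1585 in 7. Enhancer-like regions were spread over the whole range, with most in 2 tissues (1603, 21.6%), then 3 (1247, 16.8%) and 4 (1034, 13.9%), and 556 (7.48%) in all 8. The median was 8 tissues for promoter-like and 3 for enhancer-like regions. Of the 556 enhancer-like regions of all 8 tissues, 295 carried H3K4me3 in a tissue other than stomach.

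**Figure D2:**
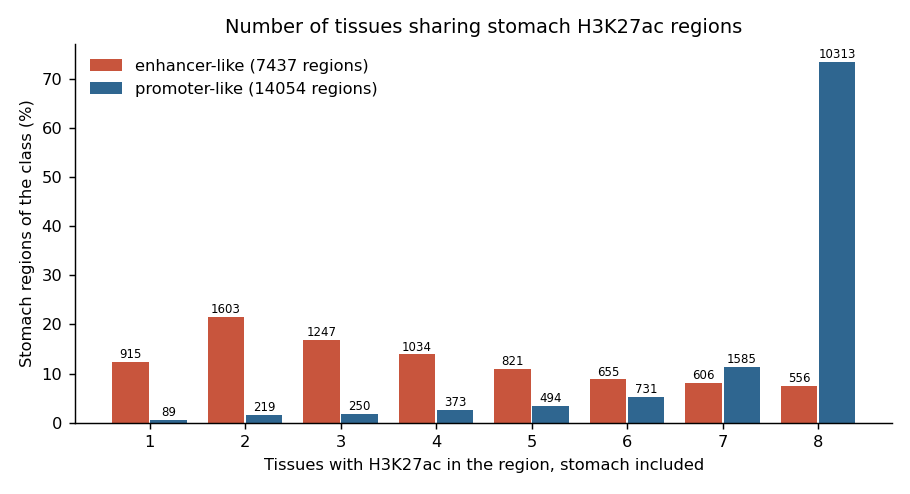
Number of tissues with H3K27ac in a stomach region (horizontal axis, stomach included) and percent of the class (vertical axis); the number above each bar is the count of regions. Enhancer-like regions (7437, red) peak at 2 tissues with 1603, and promoter-like regions (14054, blue) stand at 8 tissues with 10313.

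Colon, pancreas and liver shared the most stomach enhancer-like regions. Averaged over the 4 pairs of a stomach and a colon library, colon had 57.8 ± 2.13% of them (SD over pairs), with a range from 56.0% to 59.9%. Pancreas had 46.8 ± 3.42% and liver 42.1 ± 1.69%. Kidney followed with 29.4 ± 1.24% and spleen with 24.7 ± 2.62%. Heart with 19.5 ± 0.89% and skeletal muscle with 19.4 ± 0.77% were lowest and did not differ beyond their spread. For promoter-like regions the shares lay closer together: 91.4% in pancreas, 90.4% in liver, 90.3% in colon, 83.9% in kidney, 81.2% in heart, 79.3% in spleen and 77.9% in skeletal muscle. The first 3 of these lay closer together than the spread between pairs of libraries of kidney, 6.38 points, and the order of colon and pancreas was not that of the enhancer-like class.

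**Figure D3:**
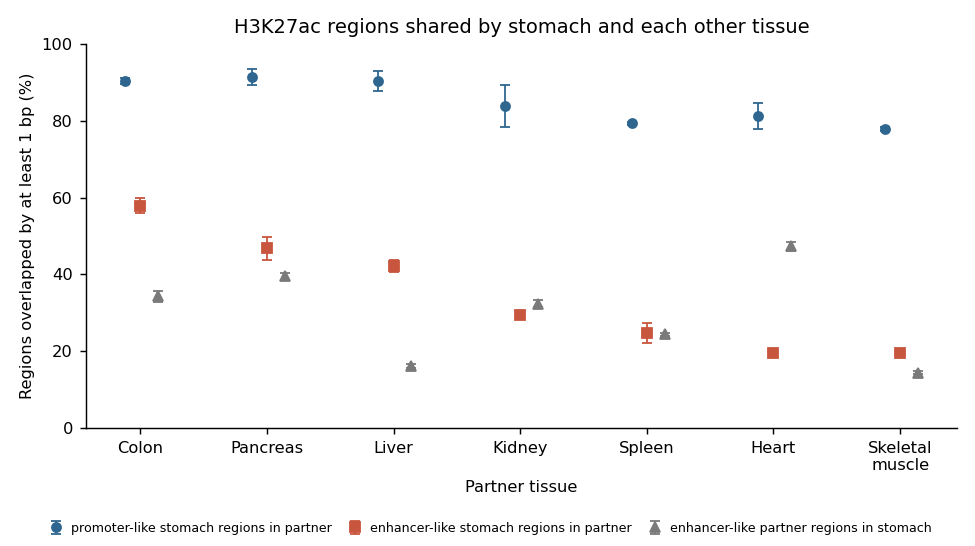
Percent of regions overlapped by at least 1 bp (vertical axis) for stomach and each other tissue (horizontal axis); symbols are means over 4 pairs of libraries and bars run from the lowest to the highest pair. Stomach enhancer-like regions (red squares) fall from 57.8% in colon to 19.4% in skeletal muscle, promoter-like regions (blue circles) stay between 77.9% and 91.4%, and partner enhancer-like regions found in stomach (grey triangles) follow another order, with heart highest at 47.3%.

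Promoter-like regions were shared more than enhancer-like regions with each of the 7 tissues. The means were 84.9 ± 5.74% and 34.3 ± 14.9% (SD, n = 7), a difference of 50.6 ± 9.88 percentage points that was above 0 in 7 of 7 tissues. The two-sided exact sign-flip permutation test gave p = 0.0156, the smallest that 7 tissues allow, and adjusted p = 0.0857 over the 15 tests. With every one of the 15 at its smallest p, the adjusted value would be 0.0612, so no difference could pass 0.05 after adjustment. The smallest difference, with colon, was 32.5 points and the largest 61.7 points. The marks differed in the same sense: the Jaccard index of stomach with another tissue was 0.353 ± 0.051 for H3K27ac and 0.615 ± 0.034 for H3K4me3 (SD, n = 7). H3K27ac was lower by 0.262 ± 0.043 on average, in 7 of 7 tissues (p = 0.0156 and adjusted p = 0.0857, exact sign-flip permutation test).

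A further comparison set colon, liver and pancreas, organs whose epithelium, like that of the stomach, derives from the endoderm, against heart, kidney, skeletal muscle and spleen. The first 3 tissues had 48.9 ± 8.06% (SD, n = 3) of stomach enhancer-like regions and the other 4 had 23.3 ± 4.78% (SD, n = 4). The difference of 25.7 points had p = 0.0286 in a two-sided exact permutation test, the smallest that the 35 arrangements allow, and adjusted p = 0.0857. The groups did not overlap, since the lowest of the 3, liver at 42.1%, lay above the highest of the 4, kidney at 29.4%. For promoter-like regions the values were 90.7 ± 0.61% (SD, n = 3) and 80.6 ± 2.59% (SD, n = 4), a difference of 10.2 points (exact permutation test, p = 0.0286, adjusted p = 0.0857). The log2 ratio of the enhancer-like over the promoter-like share was -0.90 ± 0.24 and -1.81 ± 0.26, a difference of 0.91 with the same exact permutation p and adjusted p. Whole maps differed less: the Jaccard index differed by 0.037 for H3K27ac (0.374 against 0.337; exact permutation test, p = 0.4, adjusted p = 0.6) and by 0.027 for H3K4me3 (p = 0.343, adjusted p = 0.6).

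The length of the partner lists moved with these groups. H3K27ac covered 36.9 Mb and 28.5 Mb in colon, 40.5 Mb and 47.4 Mb in liver, 28.0 Mb and 31.2 Mb in pancreas, but 17.1 Mb and 17.8 Mb in heart and 22.1 Mb and 24.0 Mb in kidney. Spleen had 28.1 Mb and 23.5 Mb, and the skeletal muscle lists covered 27.01 Mb and 25.9 Mb. With the 24000 longest H3K27ac peaks and the 16000 longest H3K4me3 peaks of each list, the enhancer-like difference was 17.9 points (exact permutation test, p = 0.0286, adjusted p = 0.107) and the promoter-like one 5.71 points (p = 0.171, adjusted p = 0.514). Asked the other way round, the enhancer-like regions of the partners were found in stomach in 29.97 ± 12.2% (SD, n = 3) and 29.6 ± 13.9% (SD, n = 4) of cases, a difference of 0.33 points (exact permutation test, p = 1.0). By tissue that share was 47.3% in heart, 39.5% in pancreas, 34.3% in colon, 32.4% in kidney, 24.4% in spleen, 16.2% in liver and 14.4% in skeletal muscle. The order thus changed with direction: heart, with the shortest lists, was near the bottom in one direction and highest in the other, and liver, with the longest, went from 42.1% to 16.2%.

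Counts of single regions come from the same overlaps as the shares above and are no independent observations. List length, which moved with the partner groups, was not adjusted for in them. Of the 1603 enhancer-like regions of 2 tissues, 1078 (67.2%) were shared with colon alone, 283 (17.7%) with pancreas alone and 115 (7.17%) with liver alone. Kidney, spleen, skeletal muscle and heart had 37, 35, 31 and 24. Both libraries of the partner held the region in 777 of the 1078 colon cases, 133 of the 283 pancreas cases and 59 of the 115 liver cases. The 219 promoter-like regions of 2 tissues showed a like share for colon, 148 (67.6%), followed by pancreas with 30 and liver with 18. Among the 1247 enhancer-like regions of 3 tissues the leading pair of partners was colon with pancreas (383, 30.7%), then colon with liver (248, 19.9%) and liver with pancreas (165, 13.2%). In all, 2603 enhancer-like regions (35%) were found in colon, liver or pancreas and in none of the other 4 tissues, 187 (2.51%) the reverse, and 3732 (50.2%) in both groups.

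The regions of 7 tissues show which single tissue was missing. Among 606 enhancer-like regions, skeletal muscle was the missing tissue in 220 (36.3%), colon in 152 (25.1%), heart in 83 and pancreas in 13. Among 1585 promoter-like regions it was skeletal muscle in 643 (40.6%), spleen in 440 (27.8%), colon in 245 (15.5%) and pancreas in 17. Colon was therefore both the most frequent single partner and, in the enhancer-like class, the second most frequent missing one.

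The 5 longest enhancer-like regions shared with colon alone are given by position, with the length covered by H3K27ac in each library. At chr10:36958851-36961965 stomach had 1.34 kb and 2.91 kb and colon 2.15 kb and 1.23 kb. At chr6:147746100-147749029 stomach had 2.93 kb and 2.39 kb and colon 1.99 kb and 1.15 kb. At chr7:78739793-78742648 the stomach values were 1.94 kb and 2.78 kb and the colon values 2.29 kb and 2.262 kb. The replicates of the tissues overlapped in length at the first and the third of these, and none of the 5 carried H3K4me3 in any library. The region at chr7:52657088-52659828 was broader in stomach (2.23 kb and 2.17 kb) than in colon (0.724 kb and 0.968 kb), and that at chr9:41011914-41014601 had 2.22 kb and 2.63 kb in stomach and 1.96 kb and 2.35 kb in colon. Their distance to the nearest stomach H3K4me3 region ran from 2.12 kb at the last of these to 95.7 kb at the chromosome 6 region.

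The 3 longest regions shared with pancreas alone lay 85.2 kb, 110.0 kb and 110.2 kb from the nearest stomach H3K4me3 region. The first, chr12:19403856-19406669, had 1.89 kb and 2.76 kb in stomach and 0.316 kb in pancreas replicate 2 alone. The others, chr1:206654659-206656865 and chr1:157139971-157142129, had H3K27ac in both pancreas libraries. Stomach had 2.21 kb and 1.67 kb at the former and 1.22 kb and 2.16 kb at the latter, and the broadest pancreas peak was 1.12 kb and 1.79 kb.

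Stomach had the highest mean similarity to the other tissues. Its mean H3K27ac Jaccard index with the 7 other tissues was 0.353 (0.358 and 0.348 in the replicates) and ranked 1 of 8, where the others had 0.306 ± 0.026 (SD, n = 7) and at most 0.340. The exact permutation test gave p = 0.25 and adjusted p = 0.6. The first rank was lost without kidney H3K27ac replicate 1, where stomach had 0.359 and the highest of the others 0.367. Stomach was the nearest tissue of colon (0.415), pancreas (0.410) and kidney (0.371), the second of heart (0.367), and the third of spleen (0.325), liver (0.299) and skeletal muscle (0.285). Kidney had nearly the same index with heart, 0.369. The rank of stomach by restricted share, 7 of 8, and its rank by similarity, 1 of 8, come from the same lists and are no independent observations.

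Length separated the classes and followed breadth in the enhancer-like class. Merged over replicates, promoter-like regions had a median of 1079 bp and enhancer-like regions of 756 bp. Per library the medians were 872 bp and 528 bp in replicate 1 and 853 bp and 575 bp in replicate 2. The class difference of 344 bp and 278 bp averaged 311 bp and ranked 5 of 8 (others 342 ± 82.7 bp, SD, n = 7; p = 0.625 and adjusted p = 0.721, exact permutation test). Enhancer-like regions ran from a median of 645 bp when restricted, through 750 bp in 3 tissues and 820 bp in 5 and in 6, to 1044.5 bp in all 8. Promoter-like regions merged over replicates had no such order: the median was 907 bp when restricted, between 744 bp and 941 bp from 2 to 7 tissues, and 1182 bp in all 8.

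**Figure D4:**
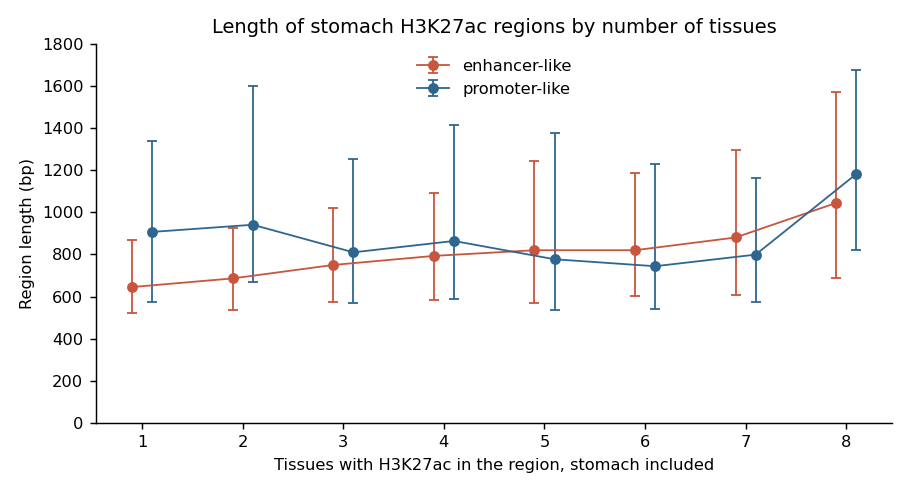
Length of stomach H3K27ac regions in bp (vertical axis) by the number of tissues sharing them (horizontal axis); points are medians and bars run from the first to the third quartile. Enhancer-like medians (red) lie at 645 bp for 1 tissue and 1044.5 bp for 8, and promoter-like medians (blue) stay at or below 941 bp up to 7 tissues and reach 1182 bp at 8.

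Within single libraries the enhancer-like medians were 445.5 bp and 489 bp for restricted peaks and 768 bp and 747 bp for those of all 8 tissues, so both replicates had the longer peaks in all 8. The promoter-like medians were 590 bp and 599 bp for restricted peaks, 610 bp and 570.5 bp in 2 to 7 tissues, and 988 bp and 965 bp in all 8. Restricted promoter-like peaks were thus the shortest in replicate 1 but not in replicate 2. Longer regions have more bases at which another list can overlap. When the central 300 bp of each region stood for the whole, the enhancer-like restricted share was 12.9%, against 12.3% with full length regions. The class difference in sharing was then 50.5 points, against 50.6. Median lengths by number of tissues were not recomputed with sharing counted from these centres. Whether the greater length of widely shared enhancer-like regions came from this larger target for overlap was therefore not tested.

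Restricted enhancer-like regions lay farther from H3K4me3. The median distance to the nearest stomach H3K4me3 region was 36.6 kb for the 906 restricted regions on a sequence with any and 19.0 kb for 6463 shared ones. Within 2 kb lay 5.96% of restricted and 15.8% of shared regions, and beyond 50 kb lay 42.6% and 28.1%. The ratio of the medians was 1.003 on the log2 scale per library, with 1.01 and 0.996 in the replicates, and ranked 5 of 8 (others 0.98 ± 0.42, SD, n = 7; p = 1.0 and adjusted p = 1.0, exact permutation test). Restricted regions were the more distant ones in all 7 other tissues too, where the ratio ran from 0.41 to 1.68.

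Chromosomes differed in how many regions they held and how many were restricted. Chromosome 22 was the densest, with 1209 regions or 24.6 per Mb, and chromosome X had 427 or 3.01 per Mb. Only 25.1% of the regions on chromosome 22 were enhancer-like, and 19 of those 303 (6.27%) were restricted, the lowest share of the chromosomes with at least 100 enhancer-like regions. Chromosome 21 had the highest share, 24 of 111 (21.6%), at 5.45 regions per Mb, followed by chromosome 3 with 61 of 322 (18.9%). The place of chromosome 22 was not particular to stomach: it was the densest chromosome and had the lowest restricted share in 8 of 8 tissues. Chromosome 21 was highest in stomach and spleen alone.

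Restricted regions formed small clusters. Joined where they lay within 12 kb of each other, the 1004 regions fell into 806 clusters, of which 654 were single regions, 152 held 2 or more, 33 held 3 or more and 4 held 5 or more. The share of restricted regions in clusters was 34.9%, with at most 7 regions in a cluster. Stomach regions of any breadth, which are far denser on the genome and so join more easily, formed 13547 clusters, with 306 of 5 or more. Of the restricted enhancer-like peaks per library, 38.4% and 38.3% had another restricted peak within 12 kb. That mean of 38.4 ± 0.08% (SD, n = 2) ranked 6 of 8 (others 45.4 ± 15.3%, SD, n = 7; p = 0.75 and adjusted p = 0.804, exact permutation test). The number of restricted regions was not adjusted for in this rank. It was lowest in heart (343, clustered share 16.3%) and highest in liver (7359, 60.5%), though spleen, with 2098, had 37.7%.

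The 10 restricted clusters with the largest covered length were of different make. Lengths given for a library count all of its peaks in the span of a cluster, also those outside the regions. In 7 of them both stomach libraries had H3K4me3 and in 3 neither had. H3K27ac of another tissue lay in the span of 2, between the restricted regions. The cluster at chr14:7033136-7039837 was 1 unbroken region of 6.70 kb, covered over 4.62 kb in replicate 1 and 6.37 kb in replicate 2. H3K4me3 covered 3.20 kb and 4.43 kb of it, and no other tissue had a peak of either mark there. The cluster at chr17:38550885-38581224 held the most regions, 7 over 30.3 kb. Its span had 5.53 kb and 5.94 kb of H3K27ac and 1.88 kb and 3.24 kb of H3K4me3. Both are therefore regions with stomach promoter marks that were called in no other tissue.

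At chr3:21725091-21732552 the span of 3 regions had 6.03 kb and 5.53 kb of H3K27ac, and H3K4me3 was uneven between replicates, at 0.466 kb and 2.59 kb. At chr11:129336128-129343076 the replicates were alike, with 3.83 kb and 3.89 kb of H3K27ac and 2.39 kb and 2.59 kb of H3K4me3. At chr15:65095022-65106653 the span of 5 regions had 4.01 kb and 2.93 kb of H3K27ac and 0.969 kb and 0.801 kb of H3K4me3. The smallest of the named clusters, chr21:46276334-46280401, had 2.42 kb and 3.46 kb of H3K27ac and 1.65 kb and 2.30 kb of H3K4me3. Of the 10 clusters 1, at chr15:3409449-3426836, lay over H3K4me3 of other tissues, in 13 of 13 libraries, and carried no H3K27ac in any of the 14.

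Clusters without H3K4me3 lay far from it. At chr8:90714679-90726516 the nearest stomach H3K4me3 region was 104 kb away. The span of 4 enhancer-like regions had 4.65 kb and 4.77 kb of H3K27ac in stomach. A peak of 0.537 kb in colon replicate 2 lay between them. At chr2:78106587-78114120 the span of 5 regions had 4.25 kb and 2.89 kb, with a peak of 0.331 kb in heart replicate 1 and H3K4me3 at 217 kb. The last of these lay on an unplaced scaffold with no stomach H3K4me3 and had 3.642 kb and 3.0 kb.

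**Figure D5:**
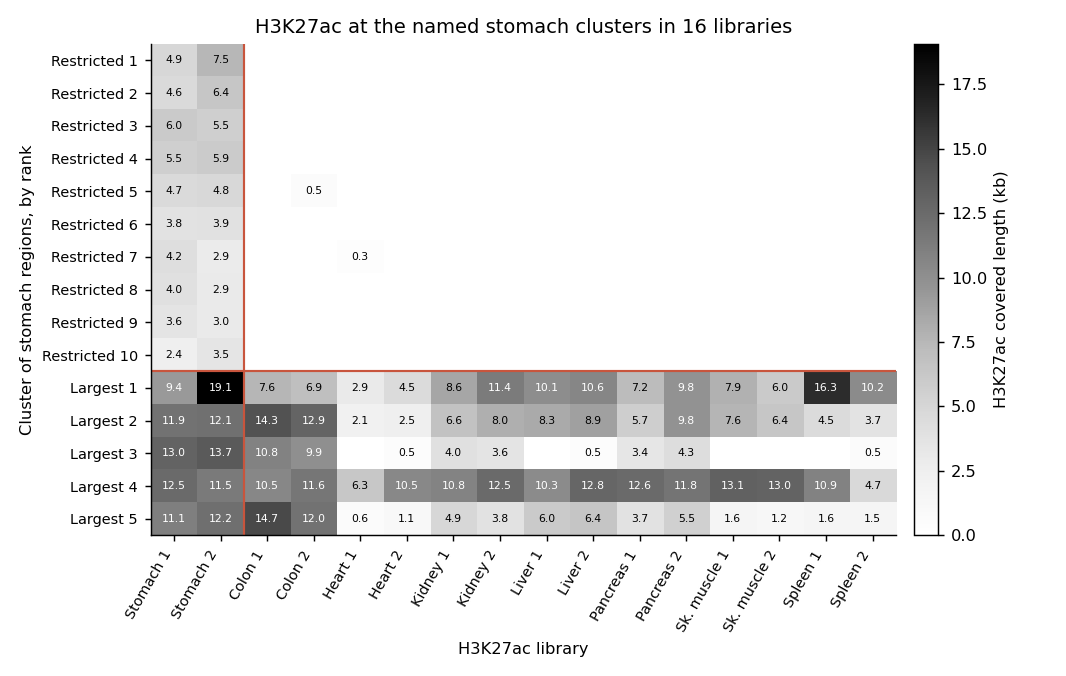
Covered length of H3K27ac in kb (grey scale and printed values) at the 10 largest restricted clusters and the 5 largest clusters of all stomach regions (rows) in the 16 H3K27ac libraries (columns). The restricted rows hold values in the stomach columns alone except 0.5 kb in colon 2 and 0.3 kb in heart 1; of the largest clusters the third, on chromosome 7, is empty in skeletal muscle.

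The 5 largest clusters of stomach regions of any breadth were widely shared. In 4 of them all 14 other libraries had H3K27ac, and both colon, both kidney and both pancreas libraries had it in all 5. Cover was highest at chr6:11023841-11057953, where 10 regions had 9.36 kb in replicate 1 and 19.1 kb in replicate 2, so the stomach replicates were far apart, and spleen replicate 1 had 16.3 kb. At chr12:29042410-29081895 the replicates had 11.9 kb and 12.1 kb and colon 14.3 kb and 12.9 kb. At chr5:109626648-109658516 stomach had 11.1 kb and 12.2 kb and colon 14.7 kb and 11.985 kb, while skeletal muscle had 1.59 kb and 1.21 kb. At chr11:16536866-16559407 the cover was 12.5 kb and 11.5 kb in stomach and 13.1 kb in skeletal muscle replicate 1.

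The cluster at chr7:35647911-35682561 was found in the fewest libraries of these 5. Its span, with 11 regions, 2 of them promoter-like, had 13.0 kb and 13.7 kb of H3K27ac in stomach and 10.8 kb and 9.92 kb in colon. Kidney had 3.99 kb and 3.615 kb and pancreas 3.39 kb and 4.29 kb. In all 9 of 14 other libraries had a peak there, and both skeletal muscle libraries had none. H3K4me3 covered 3.11 kb and 3.63 kb in stomach and was found in 6 of 13 libraries of 3 other tissues.

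Restricted promoter-like regions with the greatest length included 3 that lie within the clusters above, on chromosomes 14, 3 and 21. Of the remaining 2, chr19:28051903-28054572 had 2.35 kb and 2.58 kb of H3K27ac and 2.004 kb and 2.07 kb of H3K4me3 in stomach and no peak of either mark elsewhere. The other, chr1:9830424-9832990, had 2.06 kb and 2.57 kb of H3K27ac in stomach alone, but carried H3K4me3 in 12 of 13 libraries of other tissues. Both regions were restricted in H3K27ac, and they differed in whether H3K4me3 was.

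H3K4me3 regions were restricted less often than H3K27ac regions of both classes together (4.67%), but not less often than promoter-like H3K27ac regions (0.633%). Of the 18376 stomach H3K4me3 regions 131 (0.713%) had no H3K4me3 in another tissue, against 1.76% in the 7 other tissues together. By tissue the share was 4.59% in liver, 2.67% in colon, 1.91% in kidney, 0.867% in heart, 0.747% in pancreas, 0.666% in spleen and 0.128% in skeletal muscle, so stomach ranked 6 of 8. Heart entered with all 18231 peaks of its only H3K4me3 library, with no replicate to filter them. The pooled share and this rank therefore mix filtered and unfiltered lists. Of the stomach regions 13576 (73.9%) carried H3K4me3 in all 8 tissues. Of the 131 restricted regions 88 carried stomach H3K27ac. The longest, chr19:27989505-27993046, had 1.87 kb and 3.54 kb of H3K4me3 and 1.01 kb and 1.69 kb of H3K27ac, and no other tissue had either mark. At chr16:51957452-51960259 the stomach had 2.41 kb and 2.77 kb of H3K4me3, and pancreas replicate 2 had 0.283 kb of H3K27ac. At chr3:184611518-184613711 it had 2.08 kb and 2.19 kb of H3K4me3 with neither mark elsewhere. At chr11:128592962-128595090 H3K4me3 was in stomach alone (1.41 kb and 1.51 kb), while H3K27ac was in 7 libraries of 4 other tissues. The fifth lay within the chromosome 21 cluster.

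Among stomach H3K4me3 regions 3866 of 18376 (21.0%) had no stomach H3K27ac, with a median length of 758 bp against 1243 bp for the 14510 that carried both marks. Per library 21.9% and 21.8% of the reproducible H3K4me3 peaks had no stomach H3K27ac. This ranked 1 of the 7 tissues with H3K4me3 replicates, where the others had 14.7 ± 4.22% (SD, n = 6) and at most 19.9% (two-sided exact permutation test, p = 0.286, adjusted p = 0.6; the smallest p is 0.143). With lists of equal length stomach was no longer first: it had 17.4% and ranked 3 of 7, where the others reached 21.1%, and the difference from their mean was 1.16 points in place of 7.12. It ranked 2 without either kidney or either skeletal muscle H3K27ac library.

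Of the 3866 regions 2656 (68.7%) carried H3K27ac in another tissue, against 99.3% of the 14510. Liver had H3K27ac at the most of them, 1721 (44.5%), 314 of them in liver alone, and pancreas followed with 1245 (32.2%). The remaining tissues lay between 17.3% (spleen) and 24.3% (skeletal muscle), with colon at 21.4%. Liver also had the longest H3K27ac lists. Its share among the 14510 acetylated in stomach was 94.0%, close to pancreas with 94.5%. In 1210 cases no library of any tissue had H3K27ac.

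Acetylation did not follow the breadth of H3K4me3 in one direction. Stomach H3K27ac lay on 67.2% of the H3K4me3 regions found in stomach alone, on 42.6% of those in 4 tissues and on 88.7% of those in all 8. The lowest values, from 42.6% to 49.4%, were those of 3 to 6 tissues. The 3 longest H3K4me3 regions without stomach H3K27ac carried H3K4me3 in 13 of 13 other libraries. At chr7:25076739-25081114 H3K4me3 covered 3.21 kb and 3.75 kb in stomach, and 4 of 14 other libraries had H3K27ac. At chr3:170975328-170979195 and chr11:62528926-62532473 7 and 10 of 14 had it, up to 2.60 kb in kidney replicate 1 and 2.05 kb in skeletal muscle replicate 1.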

How the data were processed

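The authors deposited 1 peak list per ChIP library. Tools listed in the submitters' processing notes, whose roles are not stated, were MACS2 2.1.1.20160309, Bowtie 1.1.2, bedtools 2.26 and SAMtools 1.3.1. The library kit was TruSeq DNA, per the labels. The build, calJac3, is in the peak names. Of the deposited columns, chromosome, start and end alone were used. The 8 input samples are not analysed here.

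Python 3.11.15 with numpy 2.4.6 and scipy 1.17.1 was used, and matplotlib 3.10.9 for figures. Peaks of a replicate overlapped by the other by at least 1 bp were reproducible, and these were merged for counts of regions. The single heart H3K4me3 list was kept whole. Tests used each library's reproducible peaks, except those of the Jaccard index, which used whole peak lists. Values were means over libraries, with exact two-sided permutations over tissues and Benjamini-Hochberg adjustment over the 15 tests (threshold 0.05). Tissues were the units, so 3 against 4 tissues allow no p below 0.0286.

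Named regions were the 10 largest restricted clusters, the 5 largest clusters, the 5 longest restricted promoter-like, colon-shared and restricted H3K4me3 regions, and the 3 longest pancreas-shared and unacetylated H3K4me3 regions. For chromosomes, the highest and lowest restricted share were named. These members and rules were chosen with earlier results of these data known. Interval code was tested on simulated data. Alternatives were lists of equal length in place of a stricter threshold, assembled chromosomes alone, overlap of at least 50%, the central 300 bp, H3K4me3 in every library, other rules of restriction and joining, the replicate number as a block, and each library left out.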

Additional observations from a re-analysis of the deposited data

How the results depend on the processing

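Of 443 values recomputed under the alternatives, 424 kept their direction and 19 changed sign. No adjusted p could reach 0.05, since the smallest that the 15 tests allow together is 0.0612, so the side of the threshold says nothing about stability. The comparison of stomach with the other tissues in relative distance to H3K4me3 had no stable sign: the difference in log2 ratio was 0.02, and -0.028 with lists of equal length, -0.18 with an overlap of at least 50%, -0.21 with H3K4me3 in every library, -0.15 with restriction by all libraries of a tissue and -0.36 with H3K4me3 of any tissue. With lists of equal length the stomach class difference in length exceeded that of the others by 32.75 bp, against -30.9 bp. In the reverse direction, chosen after the data were seen, the promoter-like difference between partner groups was -4.94 points (exact permutation test, p = 0.286), the enhancer-like one 0.33 points and the log2 ratio 0.13 (p = 0.8).

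Leaving out each of the 31 libraries in turn gave -0.046 to 0.16 for the distance ratio, -8.24 to 6.94 points for the enhancer-like share, -11.9 to 1.505 points for the clustered share and -49.0 to 7.14 bp for the length difference. The enhancer-like share of stomach turned higher than that of the others without stomach H3K27ac replicate 1 (6.94 points) and replicate 2 (3.03 points), where 1 list remained and no peak was removed for lack of a replicate. The clustered share turned without stomach H3K27ac replicate 1 and the length difference without replicate 2. The stomach share of H3K4me3 without H3K27ac exceeded the mean of the others by 4.96 to 13.8 points. It was lowest without kidney H3K27ac replicate 2, where kidney had 32.8% and stomach 21.9%, and highest without stomach H3K27ac replicate 1. The restricted enhancer-like difference, -16.0 points, ran from -19.5 points to -7.94 points, the latter without the same library. The partner group differences ran from 19.997 to 26.6 points (enhancer-like) and from 8.78 to 11.5 points (promoter-like), and the H3K4me3 Jaccard difference from 0.002 to 0.052, without pancreas replicates 2 and 1.

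With the replicate number as a block (pairs of libraries with the same number alone), the partner group differences were 25.7 points, 10.1 points and 0.91, those in Jaccard index 0.038 and 0.037, the class difference 50.7 points and the mark difference -0.27. Whether the numbers pair the samples is not known. The differences between replicates 1 and 2 correlated across regions by -0.02 to 0.06 over 28 pairs of tissues in H3K27ac and by -0.09 to 0.15 over 21 in H3K4me3, 1 of them over 0.1. The mean Jaccard index with stomach was higher over same-numbered pairs of libraries than over the other pairs in 7 of 7 tissues in H3K27ac (by 0.0031 on average). Single libraries did not all follow this. Stomach replicate 1 had 0.387 with colon replicate 1 and 0.449 with colon replicate 2, and stomach replicate 2 had 0.376 and 0.447. In H3K4me3 the mean over same-numbered pairs was higher in 6 of 6 tissues (by 0.021). There, replicate 2 covered more than replicate 1 in stomach (22.8 Mb against 20.4 Mb) and in each of the 6 partners. The gap ran from kidney (20.9 Mb against 20.2 Mb) to skeletal muscle (25.1 Mb against 12.8 Mb). Whether list length or a pairing of samples gave the higher mean index was not tested. With no read depth, the lists cannot show a region missed for lack of reads.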

Other observations

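Peaks called in 1 stomach H3K27ac library alone were shorter and mostly enhancer-like. They numbered 7290 in replicate 1 (23.7% of its list) and 8159 in replicate 2 (25.8%), with medians of 371 bp and 384 bp against 718 bp and 730 bp for peaks of both. Enhancer-like peaks made up 71.0% and 84.0% of them, and 25.7% and 31.5% of these lay in no other tissue, against 12.4% and 12.2% of the peaks of both replicates. Colon held 38.4% and 33.8% of the enhancer-like peaks of 1 replicate alone, pancreas 36.6% and 32.7%, and liver 33.3% and 29.5%. Heart held 18.1% of those of replicate 1 and 11.8% of those of replicate 2. Colon held 65.4% and 65.7% of the enhancer-like peaks of both replicates, so its lead over pancreas was wider there.

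Few regions common to the other tissues were missing from stomach. Of 2068 H3K27ac regions of the merged catalogue found in both replicates of exactly 7 tissues, 52 lacked stomach, and 9 of these had no peak in either stomach library. Skeletal muscle was the missing tissue in 593, spleen in 426, colon in 323, heart in 306 and kidney in 282. Liver with 54 and pancreas with 32 were the tissues with counts like that of stomach by this rule, which asks for both replicates. Regions with no peak in any library of the missing tissue were fewer and ranked otherwise. They numbered 218 in skeletal muscle, 106 in colon, 100 in spleen, 28 in heart, 11 in liver, 6 in kidney and 2 in pancreas. At 8 of the 9 regions with no peak in stomach a library of at least 1 tissue had H3K4me3. This was not particular to stomach. The counts were 206 of 218 in skeletal muscle, 90 of 106 in colon, 92 of 100 in spleen and 26 of 28 in heart. In liver they were 6 of 11, in kidney 5 of 6 and in pancreas 2 of 2.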
